A study of Mus musculus with 9 samples.

Results

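Gut hormone transcripts were followed across 9 RNA-seq libraries of sorted mouse small intestinal epithelium. The 10 genes were those listed under the symbols Cck, Gcg, Pyy, Ghrl, Sst, Gip, Sct, Nts, Ppy and Gal, of 35013 genes in each of 2 deposited tables, and all 10 were present in both. Every library came from NFKO mice, which carry Neurog3Cre, FoxO1 f/f and Rosa26tdtomato, at 4 to 6 weeks of age. Cre driven by Neurog3, a transcription factor switched on in endocrine progenitors, marks these cells and their descendants with tdTomato, a red fluorescent protein, and deletes the floxed FoxO1 gene in them. The sort gave CD24negTomato+, CD24+Tomato+ and Tomatoneg cells, with 3 libraries each, where CD24 is a surface antigen and Tomatoneg cells have no tdTomato. The Tomatoneg cells carry the same alleles in the same kind of mouse, so every comparison here was between cell populations of NFKO mice and none was with a mouse of intact FoxO1 gene. CD24negTomato+ libraries stood in one table and CD24+Tomato+ libraries in the other, the Tomatoneg libraries were repeated in both, and each table was normalized on its own.

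Enteroendocrine cells (EECs) are scattered single cells of the gut lining that sense luminal contents and release peptide hormones from granules. Each hormone is made as a longer precursor that convertases cut and other enzymes trim or modify, and it acts on G protein-coupled receptors in the gut, pancreas and nerves. A given EEC often makes several hormones, and the mixture changes along the intestine and as the cell moves from crypt to villus.

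The identity of the sorted populations was read first from the genes that define the sort. Cd24a, which encodes CD24, stood at a log2 fold change of -1.37 ± 0.36 (SE, adjusted P = 0.115) in CD24negTomato+ cells, or an adjusted P of 0.0133 with the replicate number as a block, and of 2.78 ± 0.28 (SE, adjusted P = 0.00300) in CD24+Tomato+ cells. The EEC granule gene Chga rose in both populations, with a log2 fold change against Tomatoneg of 3.80 ± 0.35 (SE, adjusted P = 0.00602) in CD24negTomato+ and 5.01 ± 0.35 (SE, adjusted P = 0.00104) in CD24+Tomato+ cells. Foxo1 averaged 371 ± 96.6 (SD, n = 3) normalized counts in CD24negTomato+ against 546 ± 138 in Tomatoneg cells, with overlapping ranges and an adjusted P of 0.427. CD24+Tomato+ cells averaged 238 ± 70.7 against 574 ± 157, without overlap, at an adjusted P of 0.0579, or 0.0219 with the replicate number as a block. These gene-level values include any transcript left after the deletion, and the deleted part is not named in the sources used here, so they do not measure recombination. Estimated depth was 27723808 to 39233080 reads in the Tomato+ libraries and 19144132 to 24401706 in the Tomatoneg libraries.

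Marker genes of other secretory cells moved with the populations. Of all genes tested, 0.999% rose and 0.320% fell in CD24negTomato+ cells (4.34% and 2.96% with the replicate block). In CD24+Tomato+ cells 8.02% rose and 4.89% fell. All 8 goblet cell genes listed rose in both populations. Their summed normalized counts reached 2106810 to 2808710 in CD24negTomato+ libraries against 133197 to 204477 in Tomatoneg libraries. In CD24+Tomato+ libraries they reached 995578 to 1256950 against 148114 to 217560. Tuft and Paneth cell genes went opposite ways in the 2 comparisons, as Gip and Sst did. Of the tuft cell genes, 3 of 6 tested fell in CD24negTomato+ cells (all 6 with the replicate block), with sums of 398 to 431 against 1590 to 2220, and 7 of 8 rose in CD24+Tomato+ cells, with sums of 15500.2 to 18148 against 1840 to 2421. Of the 8 Paneth cell genes 1 rose and none fell in CD24negTomato+ cells (1 and 4 with the replicate block), with sums of 20224 to 51794 against 39653 to 163027, and all 8 rose in CD24+Tomato+ cells, with sums of 524006 to 2332920 against 42926 to 171973. T lymphocyte genes summed to 2893 to 9860 in the Tomatoneg libraries of the CD24negTomato+ table and to 544 to 1024 in its CD24negTomato+ libraries. The part of these other cells in the hormone values was not tested, and in bulk samples fewer cells of a type and less RNA per cell cannot be told apart.

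The upstream sequence of Gip, Cck and Sst is shown here from RefSeq on GRCm38.p6, read 5′ to 3′ on the gene's strand, with motif matches in capitals. Gip and Sst are shown because they parted from the other hormones in CD24negTomato+ cells. Cck, which rose in both Tomato+ populations, is shown because its upstream sequence holds the letters of a forkhead motif. The Gip stretch covers the 250 bases before the start of the gene (chr11:96024295-96024544, plus strand), the Cck stretch the same length (chr9:121495695-121495944, minus strand), and the Sst stretch 30 bases (chr16:23890874-23890903, minus strand), which lie upstream of the RefSeq start and inside the longer first exon of the GENCODE model.
Gip: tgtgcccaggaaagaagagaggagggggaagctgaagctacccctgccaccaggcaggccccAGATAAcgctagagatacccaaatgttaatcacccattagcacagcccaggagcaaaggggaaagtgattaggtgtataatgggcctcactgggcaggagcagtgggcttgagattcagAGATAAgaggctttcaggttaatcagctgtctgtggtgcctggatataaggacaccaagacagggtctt
Cck: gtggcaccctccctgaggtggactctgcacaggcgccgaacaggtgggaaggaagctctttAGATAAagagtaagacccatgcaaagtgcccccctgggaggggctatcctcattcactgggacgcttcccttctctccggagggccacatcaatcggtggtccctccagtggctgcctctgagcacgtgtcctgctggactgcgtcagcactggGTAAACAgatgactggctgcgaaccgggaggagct
Sst: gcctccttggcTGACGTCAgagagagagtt
The capitals mark AGATAA (the letters of a GATA motif) in Gip, AGATAA and GTAAACA in Cck, and TGACGTCA (a cAMP response element) in Sst. GTAAACA is the reverse complement of the forkhead letters TGTTTAC, which stand on the opposite strand. Over both strands of the 250 bases before the start of 32851 mouse promoters, AGATAA occurred in 9.99%, TGTTTAC in 3.17% and TGACGTCA in 1.55%. Of the 10 hormone genes, 3 held the GATA letters (Cck, Gip and Nts), 1 the forkhead letters (Cck) and 1 the cAMP response element (Sst). Such matches describe the letters only.

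The first comparison asked which hormone transcripts mark CD24negTomato+ cells. Of the 10 genes, 7 rose against Tomatoneg cells (Cck, Gcg, Pyy, Ghrl, Sct, Nts and Ppy), none fell at an adjusted P under 0.05, 2 (Gip and Sst) were lower without passing, and Gal had too few counts to test. Over all 13420 genes tested, 0.999% rose and 0.320% fell. With the replicate number as a block, which pairs libraries of the same number, Gip and Sst passed as lower. Then 7 rose and 2 fell, against 4.34% and 2.96% of all genes. Without the block, limma gave 2 hormone genes lower at an unadjusted P under 0.05, as were 915 of all 13420 genes. The ranges of the groups did not overlap for any of the 10, 8 higher (Gal, with values at about the floor of 3 reads, included) and 2 lower, against 14.7% and 10.6% of all genes.

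The second comparison asked the same of CD24+Tomato+ cells. All 10 hormone genes rose, where 8.02% of 13874 genes tested rose and 4.89% fell. The same call was made for all 10 with the replicate block, where 10.8% of genes rose and 9.95% fell. No range overlapped that of the Tomatoneg libraries and all 10 were higher, against 21.6% of all genes higher and 14.4% lower without overlap. The summed hormone counts were 0.323% to 0.609% of a CD24negTomato+ library, 0.982% to 1.78% of a CD24+Tomato+ library and 0.0190% to 0.0463% of a Tomatoneg library. Within the tables the sum was 16.8-fold higher than in Tomatoneg cells for CD24negTomato+ and 49.8-fold higher for CD24+Tomato+ cells, as ratios of the group means.

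**Figure D1:**
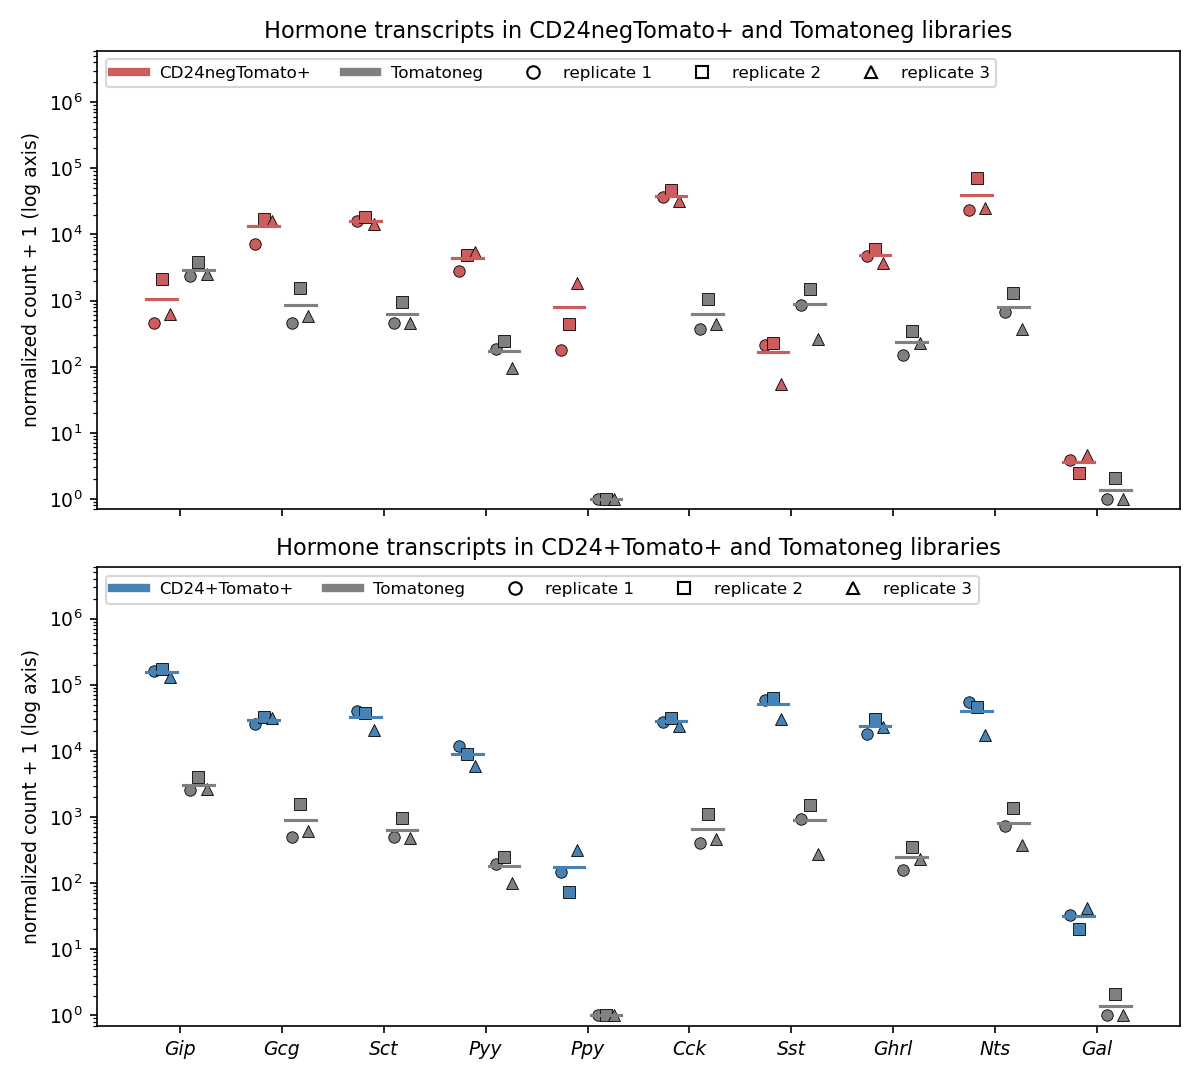
Normalized counts plus 1 of the 10 hormone genes on a log axis, one point per library (marker shape: replicate number) with a line at the group mean, in the table of CD24negTomato+ cells (top) and in that of CD24+Tomato+ cells (bottom), each beside its Tomatoneg libraries. Gip and Sst lie below the Tomatoneg points at the top and above them at the bottom, and Ppy is at 0 in all Tomatoneg libraries.

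Gip (chr11:96024545-96030831, plus strand) encodes the incretin of duodenal K cells, which raises insulin secretion after a meal. In CD24negTomato+ libraries 1, 2 and 3 it reached 458, 2109 and 619 normalized counts, against 2345, 3870.3 and 2534 in the Tomatoneg libraries of that table. The highest CD24negTomato+ library stayed below the lowest Tomatoneg library. The log2 fold change was -1.75 ± 0.55 (SE, n = 3 per group, adjusted P = 0.164), with an adjusted P of 0.0304 under the replicate block. In CD24+Tomato+ libraries Gip reached 164148, 174626 and 129277, against 2535, 3973 and 2667 in Tomatoneg libraries. All 3 lay far above the Tomatoneg libraries, and the log2 fold change was 5.69 ± 0.29 (SE, n = 3 per group, adjusted P = 0.000774).

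Sst (chr16:23889573-23890958, minus strand) encodes somatostatin, the inhibitory peptide of D cells. It reached 209, 226 and 53.4 normalized counts in CD24negTomato+ libraries and 862, 1495 and 259 in Tomatoneg libraries, again without overlap. The log2 fold change was -2.34 ± 0.78 (SE, n = 3 per group, adjusted P = 0.187), with an adjusted P of 0.0134 under the replicate block. In CD24+Tomato+ libraries it reached 59241, 62671 and 30735, against 932, 1535 and 273, with replicate 3 the lowest of each group. The log2 fold change there was 6.05 ± 0.62 (SE, n = 3 per group, adjusted P = 0.00310).

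Gcg and Sct belong with Gip to the secretin and glucagon family. Gcg (chr2:62474530-62483650, minus strand) encodes proglucagon, which intestinal L cells cut into GLP-1 and GLP-2. It measured 7252, 16867 and 15869.7 normalized counts in CD24negTomato+ libraries against 460.4, 1528 and 585 in Tomatoneg libraries. Replicate 1 was the lowest of the CD24negTomato+ libraries, and the log2 fold change was 4.07 ± 0.51 (SE, n = 3 per group, adjusted P = 0.0159). The call was lost without CD24negTomato+ replicate 2 (3.85, adjusted P = 0.114) and without CD24negTomato+ replicate 3 (3.89, adjusted P = 0.0768). Gcg measured 25217, 32483 and 31102 in CD24+Tomato+ libraries and its log2 fold change was 5.22 ± 0.42 (SE, n = 3 per group, adjusted P = 0.00140). Sct (chr7:141278330-141279133, minus strand) encodes secretin, which drives bicarbonate secretion by the pancreas. It measured 15934, 18521 and 14204 in CD24negTomato+ and 39739, 37446 and 20875 in CD24+Tomato+ libraries, and in Tomatoneg libraries 451 to 939.5 in the first table and 477 to 968 in the second. Its log2 fold changes were 4.80 ± 0.32 (SE, n = 3 per group, adjusted P = 0.00281) and 5.68 ± 0.37 (SE, n = 3 per group, adjusted P = 0.00102).

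Pyy and Ppy encode peptides of the PP-fold family and are neighbours on chromosome 11, with 5356 bases between them on GRCm38. Pyy (chr11:102106676-102107832, minus strand) encodes the satiety peptide PYY of L cells and measured 2784, 4916 and 5396 normalized counts in CD24negTomato+ libraries and 184, 241 and 94.3 in Tomatoneg libraries. Its log2 fold change was 4.69 ± 0.42 (SE, n = 3 per group, adjusted P = 0.00571). CD24+Tomato+ libraries held 12038, 8993 and 6004, with a log2 fold change of 5.68 ± 0.40 (SE, n = 3 per group, adjusted P = 0.00107). Every library of both populations lay above the Tomatoneg libraries of its table.

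Ppy (chr11:102099930-102101319, minus strand), the gene of pancreatic polypeptide, was listed at 0 in all 3 Tomatoneg libraries. It measured 176, 435 and 1827 normalized counts in CD24negTomato+ and 145, 71.5 and 314 in CD24+Tomato+ libraries, with replicate 3 the highest in each. Against the highest Tomatoneg floor of 3 reads in a library, the CD24negTomato+ mean was at least 204-fold higher and the CD24+Tomato+ mean at least 41.3-fold higher. Replicate 3 carried both limits, which were 76.5-fold and 25.3-fold without it. The fitted adjusted P was 0.0101 in CD24negTomato+ cells, and the call was lost without any 1 of the 3 CD24negTomato+ libraries (adjusted P = 0.0518, 0.115 and 0.0768 without replicates 1, 2 and 3). The CD24+Tomato+ value was 0.00555. Pancreata had been removed before the cells were prepared. The 10 pancreatic islet genes listed summed to 3069, 2511 and 10767 normalized counts in CD24negTomato+ libraries 1, 2 and 3 and to 945 to 2206 in Tomatoneg libraries, with replicate 3 the highest. None of the 8 islet genes tested passed there, or 3 as higher with the replicate block, against 4.34% of all genes. In CD24+Tomato+ libraries the islet sums were 3313, 2680 and 2317 against 993 to 2375, with replicate 3 the lowest. There 2 of 6 islet genes tested rose, against 8.02% of all genes. The insulin gene Ins2 measured 269, 614 and 5471 in CD24negTomato+ and 8.64, 135 and 358 in CD24+Tomato+ libraries 1, 2 and 3. The insulin gene Ins1 measured 62.9, 234 and 2871 in CD24negTomato+ libraries and at most 218 in CD24+Tomato+ libraries. Both were chosen after their values had been seen. By quantitative PCR, the paper reports both transcripts as highly enriched in CD24negTomato+ cells and less so in CD24+Tomato+ cells. It proposes conversion of gut cells to insulin-producing cells. Whether islet genes other than insulin were also highest in replicate 3 was not tested. The 13 acinar genes listed were highest in replicate 3 of both populations, summing to 302, 248 and 776 in CD24negTomato+ libraries against 231 to 399 and to 1255, 814 and 6298 in CD24+Tomato+ libraries against 270.2 to 442. The part of these genes' cells in the Ppy values was not tested.

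Cck, Nts and Ghrl rose in both populations. Cck (chr9:121489824-121495694, minus strand) encodes cholecystokinin, which contracts the gallbladder and stimulates pancreatic enzyme release. It measured 36574, 46473 and 31803 normalized counts in CD24negTomato+ libraries against 371, 1070.4 and 446 in Tomatoneg libraries. The log2 fold change was 6.07 ± 0.40 (SE, n = 3 per group, adjusted P = 0.00281). CD24+Tomato+ libraries held 27546, 31943 and 24130.1, with a log2 fold change of 5.54 ± 0.38 (SE, n = 3 per group, adjusted P = 0.00104).

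Nts (chr10:102481756-102490486, minus strand) encodes neurotensin, a peptide of the lower small intestine. It measured 23163, 71481 and 25302 in CD24negTomato+ libraries, where replicate 2 stood far above the other 2, and 55348, 46492 and 17652 in CD24+Tomato+ libraries, where replicate 3 was the lowest. Tomatoneg libraries held 676, 1321 and 365 in the CD24negTomato+ table. The log2 fold changes were 5.66 ± 0.57 (SE, n = 3 per group, adjusted P = 0.00788) and 5.62 ± 0.57 (SE, n = 3 per group, adjusted P = 0.00288). Ghrl (chr6:113716119-113719880, minus strand), the gene of the hunger hormone ghrelin, measured 4696, 6107 and 3711 in CD24negTomato+ and 18320.0, 30053 and 22835 in CD24+Tomato+ libraries, with 149, 342 and 225 in the Tomatoneg libraries of the former table. Its log2 fold changes were 4.39 ± 0.36 (SE, n = 3 per group, adjusted P = 0.00571) and 6.62 ± 0.33 (SE, n = 3 per group, adjusted P = 0.000774). The annotation places 2 other gene models, Gm26982 and Gm44033, on the opposite strand of Ghrl, and reads of overlapping models cannot be told apart without strand.

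Gal (chr19:3409915-3414544, minus strand), the gene of galanin, a neuropeptide, had the lowest mean of the 10 in both Tomato+ populations. It measured 2.86, 1.51 and 3.62 normalized counts in CD24negTomato+ libraries, of which replicates 1 and 3 passed the floor of 3 reads, and 31.9, 19.6 and 40.9 in CD24+Tomato+ libraries. Tomatoneg libraries held 0, 1.07 and 0. In CD24+Tomato+ cells its log2 fold change was 4.57 ± 0.95 (SE, n = 3 per group, adjusted P = 0.0231), and the mean was at least 7.19-fold higher than the floor. The call was lost without any 1 of the 3 CD24+Tomato+ libraries (adjusted P = 0.136, 0.143 and 0.117 without replicates 1, 2 and 3), with a pseudocount of 0.1 (adjusted P = 0.0509) and after quantile normalization (adjusted P = 0.165).

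**Figure D2:**
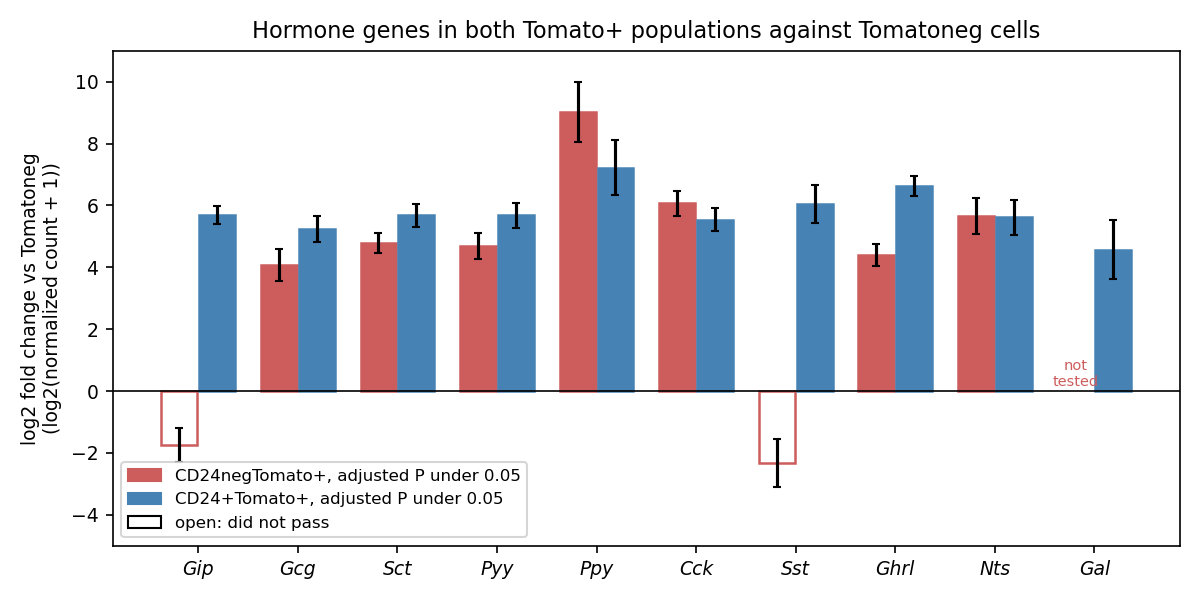
Log2 fold change against Tomatoneg cells of the 10 hormone genes in CD24negTomato+ and CD24+Tomato+ cells, on log2(normalized count + 1), with bars to 1 SE (3 libraries a group). Filled bars passed an adjusted P of 0.05; Gip and Sst are open and negative in CD24negTomato+ cells (-1.75 and -2.34) and filled and positive in CD24+Tomato+ cells (5.69 and 6.05).

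Setting the Tomato+ populations side by side rests on values normalized in separate tables, so CPM (counts scaled to a common library total) are given as ranges and without a test. Gip spanned 16.2 to 76.8 CPM in CD24negTomato+ and 4486 to 7265 in CD24+Tomato+ libraries, and Sst 1.76 to 8.24 and 1066 to 2622. The CD24+Tomato+ mean was 160-fold higher for Gip and 343-fold higher for Sst. For 7 of the 10 genes (Gip, Sst, Gcg, Pyy, Ghrl, Sct and Gal) every CD24+Tomato+ library lay above every CD24negTomato+ library. The mean was 5.27-fold higher for Ghrl, 2.42-fold for Gcg, 2.34-fold for Pyy and 2.25-fold for Sct. Cck, Nts and Ppy overlapped, Cck at 1048 to 1693 and 837 to 1219 and Nts at 820.1 to 2604 and 612 to 2449.6 CPM.

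Shares of the 10 hormones within a library do not depend on a scaling factor of the library, and those of the Tomatoneg libraries differed by at most 0.0431 percentage points between the tables. In CD24negTomato+ libraries Cck made up 33.4% ± 6.22 (SD, n = 3) of the hormone counts, Nts 31.3% ± 9.97 and Sct 14.3% ± 3.19. Gip made up 0.797% ± 0.408 there and Sst 0.140% ± 0.0878. In CD24+Tomato+ libraries Gip made up 42.6% ± 2.72, Sst 13.5% ± 2.24, Nts 10.3% ± 3.81 and Cck 7.63% ± 0.842. For these 4 hormones Tomatoneg libraries were close to the latter, with Gip at 43.2% ± 7.65, Sst at 11.6% ± 5.57, Nts at 10.6% ± 2.83 and Cck at 8.54% ± 1.63. Ghrl did not overlap, with a CD24+Tomato+ share of 6.57% ± 1.81 (lowest library 4.56%) and a Tomatoneg share of 3.47% ± 0.958 (highest library 4.54%).

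How far apart the mixtures lay was summed up by the share of hormone counts that would have to change hormone to turn one mean composition into the other, a measure chosen after the shares had been seen and given without a test. It was 5.07% between CD24+Tomato+ and Tomatoneg cells, with 5.10% to 17.9% over the 9 pairs of single libraries. Pairs within a population spanned 4.81% to 14.8% in CD24+Tomato+, 9.80% to 17.1% in Tomatoneg and 12.5% to 20.4% in CD24negTomato+ cells. CD24negTomato+ and Tomatoneg cells were 53.9% apart (48.96% to 59.4% over 9 pairs), and CD24negTomato+ and CD24+Tomato+ cells 57.5% (54.9% to 61.8%). With Gip and Sst left out, the distance of CD24negTomato+ from Tomatoneg cells was 23.7%, and that of CD24+Tomato+ cells 7.80%. The widest of the 9 pairs of CD24+Tomato+ and Tomatoneg libraries (17.9%) lay above the widest pair within either of these populations (17.1%). Every pair of a CD24negTomato+ library with a library of another population lay above the widest pair within any of the 3 (20.4%). Leaving out 1 library raised the distance of CD24+Tomato+ from Tomatoneg cells to 8.06% without CD24+Tomato+ replicate 3 and to 7.65% without Tomatoneg replicate 1.

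**Figure D3:**
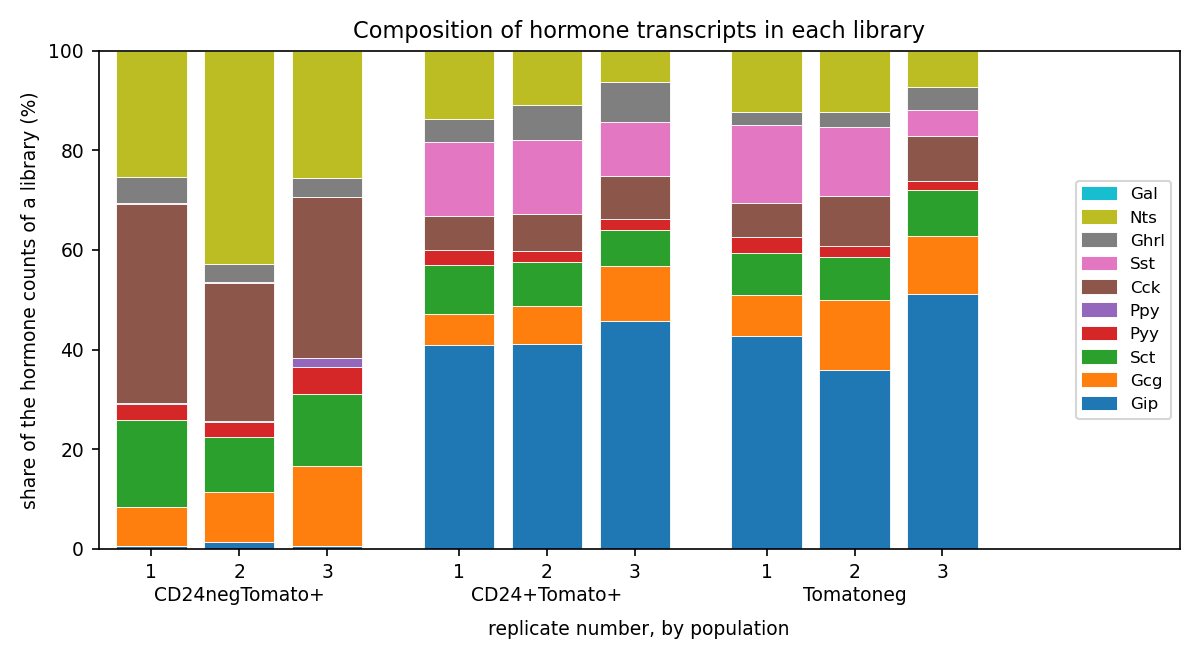
Share (%) of each hormone in the summed counts of the 10 hormone genes, one bar per library, by population and replicate (Tomatoneg libraries from the table with CD24negTomato+). Gip (bottom) and Sst take large shares in the 3 CD24+Tomato+ and 3 Tomatoneg libraries, and Cck and Nts take most of the 3 CD24negTomato+ libraries.

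Levels of different hormones can be ordered only per length of transcript, here per kilobase of the longest coding transcript, a length picked after the data had been seen. As shares of the 10 per-kilobase values, CD24negTomato+ cells ran from Cck (35.1% ± 4.96, SD, n = 3) through Sct (22.5% ± 3.94) and Nts (21.4% ± 8.16) to Gcg (8.81% ± 3.15), Pyy (5.78% ± 2.03) and Ghrl (3.95% ± 0.646). The ranges of Sct and Nts overlapped, as did those of Gcg and Pyy and of Pyy and Ghrl. CD24+Tomato+ cells ran from Gip (47.5% ± 2.93) to Sst (13.6% ± 2.29) and Sct (11.8% ± 1.73), whose ranges overlapped, and then to Cck, Nts, Gcg, Ghrl and Pyy between 6.95% and 3.16%, each overlapping the next. The order depended on the length used. Per kilobase of all annotated exons, CD24negTomato+ cells held Cck at 27.4% ± 4.60, Nts at 27.0% ± 9.51 and Sct at 23.7% ± 4.80, with overlapping ranges and Nts above Cck in replicate 2 (38.0% against 23.6%). In CD24+Tomato+ cells Gip (mean 50.1%, range 47.7% to 54.1%), Sst (15.1%, 12.3% to 16.6%) and Sct (10.9%, 9.30% to 12.3%) kept their places, and Nts, Ghrl, Cck and Gcg followed in that order.

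Likeness across libraries was measured as the root mean square difference of log2(CPM + 1), after centring each gene, over the 9 libraries and the 10008 genes with a mean of at least 5 CPM, which leaves out Gal. All genes share these libraries. Pyy was nearest to the granule protein gene Chga (0.34) and, among the hormones, to Sct (0.35). Sct was nearest to Pyy, and outside the hormones to Chgb (0.40). Nts was nearest to Scg2 (0.54), like Chgb of the granin family of granule proteins. Cck was nearest to Nts (0.58), and outside the hormones to Scg2 (0.70). Gcg was nearest to the potassium channel gene Kcnk16 (0.43). Ghrl was nearest to Sct (0.64), and outside the hormones to the retinol carrier gene Rbp4 (0.68). Gip and Sst were nearest to each other among the hormones (0.79), and the nearest other gene of Gip, Nnat, was farther (1.12). Ppy was nearest to Fcgbp (0.89), a goblet cell gene, and at 1.52 from its nearest hormone, Gcg. With Ppy at 0 in all Tomatoneg libraries and at 2.60 to 10.9 CPM in CD24+Tomato+ libraries, its likeness depends on the 1 added before the log.

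Of the other genes of the pathway, changes are given as log2 fold changes against Tomatoneg cells on log2(normalized count + 1). Of 16 other peptide hormone genes, 7 could be tested in the CD24negTomato+ table, and 1 rose: Tac1, the gene of substance P, at 3.89 ± 0.61 (SE, adjusted P = 0.0327). Of all genes tested there, 0.999% rose. With the replicate block Ucn3 also passed (adjusted P = 0.0423), where 4.34% of all genes rose. The CD24+Tomato+ table had 8 tested, and 5 of them rose, against 8.02% of all genes. These were Cartpt at 6.79 ± 0.88 (SE, adjusted P = 0.00633), Ucn3 at 6.09 ± 0.87 (SE, adjusted P = 0.00819), Insl5 at 5.05 ± 1.04 (SE, adjusted P = 0.0226), Tac1 at 4.79 ± 0.42 (SE, adjusted P = 0.00172) and the amylin gene Iapp at 4.33 ± 0.67 (SE, adjusted P = 0.00994). Cartpt and Insl5 were listed at 0 in every Tomatoneg library, and their means were at least 29.1-fold (18.4-fold without CD24+Tomato+ replicate 1) and 9.16-fold higher than the floor. Ucn3 held 0, 2.22 and 4.48 normalized counts in the Tomatoneg libraries of that table, about the floor of 3 reads. In CD24negTomato+ cells Insl5 stood at 5.60 ± 1.10 (SE, adjusted P = 0.0592). The median log2 fold change of those tested was 3.61 in CD24negTomato+ and 4.56 in CD24+Tomato+ cells, against 0.08 and 0.16 over all genes tested.

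Genes of prohormone maturation changed in both populations. More of them passed in CD24+Tomato+ cells, as did more of all genes (1113 higher against 134). The difference was not tested. In CD24negTomato+ cells 3 of 12 rose and none fell, against 0.999% and 0.320% of all genes. By limma 7 were higher at an unadjusted P under 0.05, as were 1377 of 13420 genes. With the replicate block 7 passed as higher after adjustment, against 4.34% of all genes. Cpe, the carboxypeptidase that trims the cut peptides, rose by 4.21 ± 0.37 (SE, adjusted P = 0.00571), and Pcsk1n, an inhibitor of the prohormone convertase encoded by Pcsk1, by 3.99 ± 0.50 (SE, adjusted P = 0.0162). The gene of that convertase, Pcsk1, rose by 2.96 ± 0.38 (SE, adjusted P = 0.0164). Pcsk1 and Pcsk5 lie outside the rule for named genes and were chosen after their values had been seen.

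In CD24+Tomato+ cells 8 of 12 rose and 1 fell, against 8.02% and 4.89% of all genes. With the replicate block 9 rose and 1 fell, against 10.8% and 9.95%. Scg5, a chaperone of another convertase, rose by 6.84 ± 1.32 (SE, adjusted P = 0.0189), Pcsk1n by 5.54 ± 0.59 (SE, adjusted P = 0.00351), Cpe by 5.25 ± 0.31 (SE, adjusted P = 0.00102) and Qpct, which forms the N-terminal pyroglutamate found in neurotensin, by 5.19 ± 1.24 (SE, adjusted P = 0.0355). Qpct measured 531, 131 and 74.6 normalized counts in CD24+Tomato+ libraries and 204, 299 and 233 in CD24negTomato+ libraries, where its log2 fold change was 5.70 ± 1.04 (SE, adjusted P = 0.0504, or 0.0248 with the replicate block). The Qpct folds start from low Tomatoneg values, at 0, 15.6 and 5.62 in the CD24+Tomato+ table and 0, 15.2 and 5.35 in the CD24negTomato+ table. Mboat4 encodes the acyltransferase that activates ghrelin. It averaged 523 ± 70.9 (SD, n = 3) normalized counts in CD24+Tomato+ cells and 15.3 ± 13.2 in Tomatoneg cells, a log2 fold change of 5.97 ± 1.23 (SE, adjusted P = 0.0227). CD24negTomato+ cells averaged 21.0 ± 6.24 against 14.7 ± 12.8, with overlapping ranges and an adjusted P of 0.636. Pcsk5, a convertase also made by enterocytes, was the gene that fell, at -1.96 ± 0.38 (SE, adjusted P = 0.0196), and the 8 enterocyte genes listed summed to 46773 to 130353 in CD24+Tomato+ against 206048 to 780339 in Tomatoneg libraries. The part of enterocytes in this value was not tested.

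Of 22 hormone receptor genes, 9 could be tested in each table. None passed in CD24negTomato+ cells, where limma gave 5 higher at an unadjusted P under 0.05, as were 1377 of 13420 genes. With the replicate block 4 passed as higher after adjustment, against 4.34% of all genes. In CD24+Tomato+ cells 5 of 9 rose, against 8.02% of all genes. These were 4 somatostatin receptors and the galanin receptor Galr1. Sstr5 rose by 6.51 ± 1.25 (SE, adjusted P = 0.0186), Sstr1 by 6.50 ± 1.22 (SE, adjusted P = 0.0172), Galr1 by 6.41 ± 1.03 (SE, adjusted P = 0.0108), Sstr3 by 5.45 ± 1.02 (SE, adjusted P = 0.0171) and Sstr2 by 4.54 ± 1.04 (SE, adjusted P = 0.0310). The folds of Sstr5, Sstr1, Galr1 and Sstr2 start from low Tomatoneg values, with replicate 1 at 0. Tomatoneg libraries of that table held 0, 23.0 and 27.4 normalized counts of Sstr5 and 0, 20.3 and 2.41 of Sstr1. Galr1 held 0, 4.44 and 0 there and Sstr2 0, 6.11 and 9.26. In CD24negTomato+ cells Sstr5 stood at 5.37 ± 1.24 (SE, adjusted P = 0.0841) and Galr1 at 5.08 ± 1.10 (SE, adjusted P = 0.0722). Receptor genes at 0 in every library numbered 8 in the CD24negTomato+ and 5 in the CD24+Tomato+ table.

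Among 7 genes of peptidases that clear the hormones, none passed in CD24negTomato+ cells in either direction. Limma gave none at an unadjusted P under 0.05. With the replicate block 2 were higher at that unadjusted threshold, as were 2277 of 13420 genes, and none passed after adjustment. In CD24+Tomato+ cells 3 of 7 fell, against 4.89% of all genes, or 6 with the replicate block, against 9.95%. Ace fell by 2.94 on the log2 scale (SE 0.67, adjusted P = 0.0300), Enpep by 2.82 (SE 0.57, adjusted P = 0.0215) and Anpep by 2.61 (SE 0.64, adjusted P = 0.0385). These are brush border enzymes of enterocytes, whose listed genes were also lower in the CD24+Tomato+ libraries, as given for Pcsk5, and their part was not tested.

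**Figure D4:**
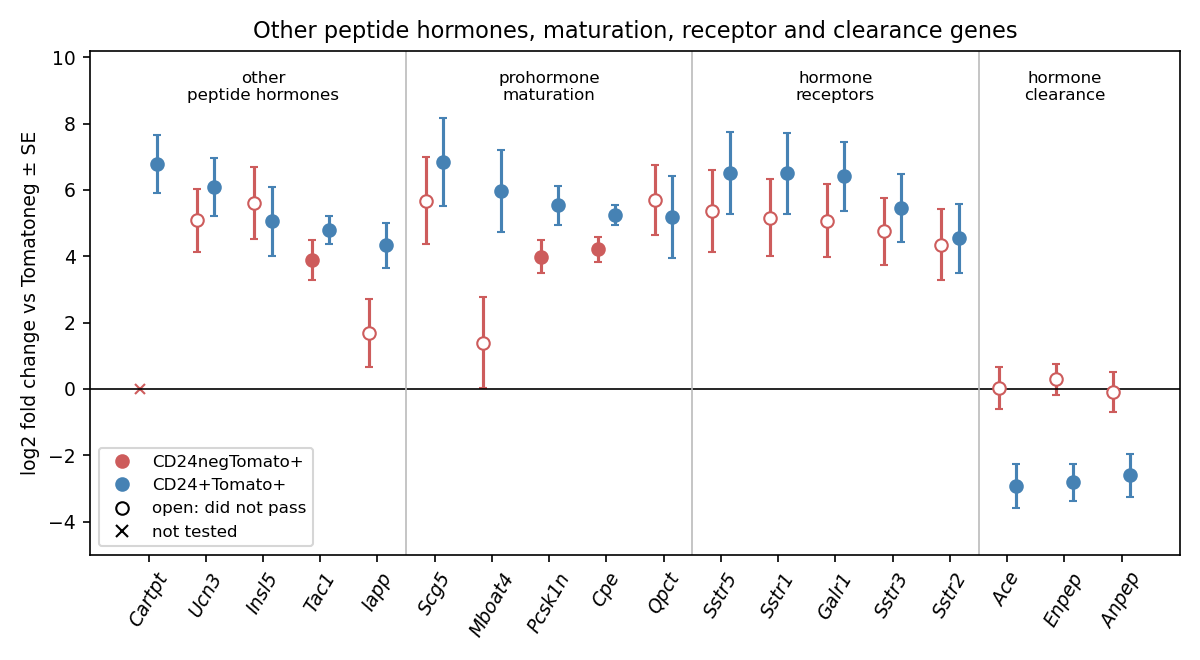
Log2 fold change against Tomatoneg cells, with bars of 1 SE, of the named genes of 4 lists (other peptide hormones, prohormone maturation, hormone receptors, hormone clearance) in CD24negTomato+ and CD24+Tomato+ cells. Open circles did not pass an adjusted P of 0.05 and a cross marks a gene not tested; Mboat4 stands at 1.40 in CD24negTomato+ and 5.97 in CD24+Tomato+ cells, and Ace, Enpep and Anpep are filled and below 0 in CD24+Tomato+ cells.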

How the data were processed

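Poly-A RNA of sorted small intestinal epithelial cells was sequenced in 9 libraries, 3 per population. Per the labels' processing notes, bcl2fastq 2.19, kallisto 0.44.0, DESeq2, sleuth and GRCm38 were used. The authors deposited 2 tables of normalized counts per gene (a signal scaled within a table, not raw counts), each with 6 libraries. The same Tomatoneg libraries stand in both, with a ratio that varies between genes (5th to 95th percentile 1.01 to 1.17 in replicate 1), so tests stayed within a table. No column was left unused.

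Where the 6 libraries of a table averaged 10 normalized counts or more, a gene was tested with limma 3.58.1 (R 4.3.3; eBayes with trend) on log2(normalized count + 1), two-sided, with Benjamini-Hochberg adjustment over all genes tested and a threshold of 0.05. Folds on this scale understate the change of low genes. Depth was estimated from the spacing of low values (39.3% to 61.7% of low values lay near a multiple of 1 read), which did not recover whole reads, so no count test was run. The floor is 3 reads, 2.10 to 4.29 normalized counts, and covers counting error only. Replicate numbers come from the labels, which name biological replicates (Biol rep). The labels do not say that libraries of the same number share mice or that replicates are separate animals. P values therefore measure the spread between these samples. Same-numbered libraries deviated together (r of their deviations from the group means 0.29 to 0.34 in the CD24negTomato+ table and 0.18 to 0.38 in the CD24+Tomato+ table), so the replicate number was also fitted as a block. An exact permutation test of 3 against 3 libraries cannot go below 0.1.

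The hormone genes and gene lists were chosen with earlier results of these data known. Text names all 10 hormone genes, up to 5 genes of each other list with the largest change past the threshold in either comparison, and up to 3 nearest genes of each hormone (the nearest other gene of Sst is not reported here). Alternatives were the pseudocount, the filter, the block, other scalings and leaving out each library. The distance between compositions, its variants and the transcript length for per-kilobase shares were chosen after seeing the data. Gene positions are from GENCODE M21 and promoters from RefSeq, where all 10 genes matched. Protein sequences were not used here.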

Additional observations from a re-analysis of the deposited data

Results flagged for a closer look

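Gip, Sst, Cd24a and Neurog3, and the summed tuft and Paneth cell genes, had lower values than Tomatoneg cells in CD24negTomato+ libraries and higher values in CD24+Tomato+ libraries, in each same-numbered pair. Gip had a log2 fold change against Tomatoneg cells of -1.75 in CD24negTomato+ and 5.69 in CD24+Tomato+ cells. Sst had -2.34 and 6.05. Cd24a, the gene of the antigen used for the sort, had -1.37 and 2.78. Neurog3, the gene whose promoter drives the Cre, had -2.26 (adjusted P = 0.126 by limma, or 0.0673 with the replicate block) and 3.25 (adjusted P = 0.00231). The median log2 fold change of the tuft cell genes tested was -2.56 in CD24negTomato+ and 2.95 in CD24+Tomato+ cells, and that of the Paneth cell genes -1.42 and 3.50. The part of these cells in the Gip and Sst values was not tested. No test was run on how these values differ across populations: they come from tables normalized separately, and both comparisons share the Tomatoneg libraries.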

How the results depend on the processing

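Over 265 refits of single hormone genes, 253 kept their direction and their side of the threshold, 10 lost the call (Gcg and Ppy in CD24negTomato+ and Gal in CD24+Tomato+ cells), 2 gained it and none reversed. The replicate block, which pairs libraries by number, moved the hormone genes lower in CD24negTomato+ cells from 0 to 2 and changed no other hormone call; all genes higher went from 134 to 582 and lower from 43 to 397 there, and lower from 678 to 1381 in CD24+Tomato+ cells. In CD24negTomato+ cells genes higher were 314 with a pseudocount of 10 and 304 after quantile normalization, and genes lower 19 with a pseudocount of 0.1, 101 with 10, 28 without a filter and 190 after quantile normalization. Equal library totals gave 98 higher and 60 lower. In CD24+Tomato+ cells genes higher were 731 with a pseudocount of 0.1, and genes lower 1036 after quantile normalization. Leaving out 1 library gave 17 to 617 genes higher and 1 to 442 lower in CD24negTomato+ cells, the extremes being without CD24negTomato+ replicate 2 and without Tomatoneg replicate 1, and 127 to 1620 higher and 41 to 858 lower in CD24+Tomato+ cells, lowest without CD24+Tomato+ replicate 2. The hormone genes higher were then 5 to 7 and 9 to 10. The distance of CD24negTomato+ from Tomatoneg compositions, 53.9%, became 58.9% per kilobase of the longest coding transcript, 62.99% per kilobase of all exons and 23.7% without Gip and Sst. That of CD24+Tomato+ from Tomatoneg compositions, 5.07%, ran from 4.39% to 8.06% with 1 library left out. The causes were not tested. Of 30 mean shares, 11 moved by more than 1 SD per kilobase of the longest coding transcript. Leaving out 1 of 3 libraries cannot move a mean share by more than 1 SD, so that step was no check of the shares. Depth limits Gal and Ppy, whose Tomatoneg values lie under 3 reads.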

Other observations

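Summed genes of the proximal gut were highest in replicate 1 of each population, as were the enterocyte genes and the distal gene Slc10a2. The 6 proximal small intestine genes (Gata4, Cybrd1, Slc40a1, Lct, Onecut2 and Creb3l3) summed to 77849.5 normalized counts in CD24negTomato+ replicate 1, against 20525 and 27243 in replicates 2 and 3. The Tomatoneg libraries of that table held 80539.5, 19576 and 23024, and the CD24+Tomato+ libraries 14069.8, 5293 and 6339.8. The 6 distal genes summed to 46012, 38712 and 45564 in CD24negTomato+ and to 47684, 34074 and 36939 in Tomatoneg libraries of that table. Both were highest in replicate 1, while CD24+Tomato+ libraries held 29746, 37053 and 35023. Slc10a2 measured 1064, 555 and 694 in CD24negTomato+, 954, 306 and 145 in Tomatoneg and 272, 37.1 and 51.4 in CD24+Tomato+ libraries. The distal gene Fabp6 measured 15353.5, 18331 and 22891.5 in CD24negTomato+ libraries, with replicate 1 the lowest. It measured 28714, 24260 and 26322 in Tomatoneg libraries of that table and 4119, 4076 and 3342 in CD24+Tomato+ libraries, with replicate 1 the highest of each. The 8 enterocyte genes listed, which share Lct with the proximal list, were also highest in replicate 1, at 647983 against 275275 and 311773 in CD24negTomato+, 727526 against 201919 and 218397 in Tomatoneg and 130353 against 53358 and 46773 in CD24+Tomato+ libraries. Their part in the proximal sums was not tested. Gip, a hormone of the proximal gut, was highest in replicate 2 of each population in normalized counts, and by CPM in replicate 1 of the CD24+Tomato+ libraries (7265, against 6348 and 4486).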
